A study of Mus musculus with 8 samples.

Results

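Cells hold peroxides and superoxide in check with a set of enzymes that share glutathione, thioredoxin and NADPH, and 10 genes of this defence were examined in photoreceptor cells of mice labelled Lpcat1 heterozygous (HZ) or Lpcat1 KO. The genes were Hmox1, Nqo1, Gclc, Gclm, Slc7a11, Gpx1, Gpx4, Sod1, Sod2 and Txnrd1, and they were chosen by name, as all probes of the array whose RefSeq accession belongs to any of them. All 10 genes were on the array, through 12 of its 56605 probes, with a second probe for Txnrd1 and for Slc7a11. Of these genes 8 were above background on enough arrays to be tested, out of 14848 named genes tested in all.

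The arrays compared photoreceptor cells of the retina at postnatal day 8 (P8), with 4 arrays labelled HZ and 4 labelled KO and the same strain label, C57BL/6, on all of them. LPCAT1 is an acyltransferase that makes phosphatidylcholine with saturated fatty acids, and its gene was deleted in the whole body of the KO mice, so that every cell type carried the deletion. The mice came from a C57BL6/N line crossed to C57BL6/J, and animals homozygous for the rd8 mutation of Crb1 were left out. Cells were dissociated from the retina, labelled with an antibody against CD73, a surface protein of photoreceptor cells, and collected with magnetic beads. The labels number the replicates from 1 to 4 in each group and do not say whether these are separate animals, so that p-values measure the spread between these samples, which may be partly technical.

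The 75th percentile of the signal lay between 882 and 1024 intensity units on the 8 arrays, and 59.5% to 64.6% of probes were well above background on each. The arrays labelled KO were in a different row of the slide from those labelled HZ, and slide row and genotype cannot be told apart. The software's mark for an uneven spot was set on 458 spots of HZ replicate 4 and on 2 to 25 spots of the other arrays, and 0 of these were spots of the 10 genes. All 12 rod markers, Nrl and Nr2e3 among them, were well above background on all 8 arrays. Markers of other cells were present too. The summed signal of 12 markers of the retinal pigment epithelium (RPE), in units of each array's 75th percentile, was 14.3 to 39.5 in HZ and 7.31 to 14.2 in KO, with Lrat above background on 2 of 8 arrays. That of 15 microglia markers was 6.64 to 10.8 in HZ and 7.39 to 11.6 in KO, with all markers but P2ry12 and Tmem119 above background on every array. That of 8 red blood cell markers was 0.25 to 0.62 in HZ and 0.36 to 2.19 in KO, with Alas2, Hbb-b1 and Epb42 among those above background on none. That of 7 cone markers was 79.4 to 164.1 in HZ and 130.5 to 182.8 in KO. For 6 bipolar cell markers it was 72.8 to 119.5 in HZ and 62.9 to 82.3 in KO. For 7 amacrine and ganglion cell markers it was 60.8 to 71.5 in HZ and 55.9 to 72.6 in KO, with 3 above background on none. For 9 Muller glia markers it was 15.7 to 28.2 in HZ and 12.9 to 27.1 in KO. Lpcat1 itself, on a single probe whose place inside or outside the deleted part is not known here, read -1.17 to -0.81 in HZ and -1.16 to -0.85 in KO (difference -0.037, SE 0.11, limma adjusted p = 0.931), and genotypes are therefore given as labelled.

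Much of this defence is switched on together. The transcription factor NRF2, held down by KEAP1 in resting cells, binds antioxidant response elements near Hmox1, Nqo1, Gclc, Gclm, Txnrd1 and Slc7a11 when cells meet oxidants. Ferroptosis is a form of cell death in which iron drives the peroxidation of polyunsaturated phospholipids. GPX4 reduces these lipid peroxides with glutathione, and the supply of glutathione rests on cystine uptake through SLC7A11 and on its synthesis by the GCLC and GCLM subunits. Photoreceptor membranes are rich in polyunsaturated phospholipids, which makes this defence of interest in their cells.

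The core letters of the antioxidant response element, TGACNNNGC with N for any base, were searched on both strands in the RefSeq promoter windows of GRCm38.p6, which run from 250 bases before to 50 after each transcription start. The windows matched 8 of the 10 genes, all but Hmox1 and Gclc, and the letters were found for 3 of these 8, Gclm, Sod1 and Txnrd1, which is 37.5% of them. They were found for 14% of all 27025 genes with a window, in 12.4% of all 32851 windows and in 23.1% of the 13 windows of these genes. The 3 stretches are shown, because they are where the searched letters stand close to the start of a gene measured here, with the match in capitals, 5′ to 3′ on the strand of the gene. On that strand the match reads as its reverse complement, GCNNNGTCA.
Gclm (GRCm38.p6, chr3:122245393-122245461, plus strand, match 134 to 126 bases before the start): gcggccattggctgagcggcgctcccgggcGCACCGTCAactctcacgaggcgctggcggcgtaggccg
Sod1 (GRCm38.p6, chr16:90220676-90220744, plus strand, match 56 to 48 bases before the start): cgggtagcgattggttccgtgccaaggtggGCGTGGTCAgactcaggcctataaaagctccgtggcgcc
Txnrd1 (GRCm38.p6, chr10:82859084-82859152, plus strand, match 92 to 84 bases before the start): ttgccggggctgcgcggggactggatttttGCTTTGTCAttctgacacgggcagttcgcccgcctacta
None of the 3 matches overlapped the AP-1 motif TGANTCA, which overlapped a match in 3.66% of all windows that held one. Txnrd1 has 3 windows in the table and the match lay in 1 of them. Windows of Nqo1, Slc7a11, Gpx1, Gpx4 and Sod2 held no match, which says only that these letters are not in them. In the wider list of 23 NRF2 regulators and other targets, described further on, the letters were in windows of 9 of the 21 genes with a window, 42.9%. In the other lists described further on the share was 10.5% for glutathione, 20% for thioredoxin, peroxiredoxin and mitochondrial NADPH, 11.5% for ferroptosis, iron and heme, 4.35% for selenoproteins and 0% of 4 genes for NADPH oxidase. The median difference between KO and HZ was 0.033 on the log2 scale over 1930 tested genes with a match and 0.030 over 9850 with a window and no match.

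The comparison of KO with HZ asks whether the cells carried a different level of these defence transcripts at P8. Each value below is a normalised log2 signal, on which 0 is the 75th percentile of the array and 1 is a doubling, and each difference is KO minus HZ. At a fold change over 1.2 with an adjusted p under 0.05, limma called 0 of the 8 tested genes, beside 0% of all 34303 probes tested. At the looser thresholds in the methods, a fold change over 1.5 with an adjusted p under 0.5, it also called 0 of the 8, beside 0.227% of probes called higher and 0.813% called lower. An unadjusted p under 0.05 was reached by 0 of the 8, also by the methods' t-test, beside 8.17% of probes, while Hmox1 reached it with trend and robust eBayes, with a replicate block and when replicate 1 or 4 of HZ or 2 of KO was left out, Hmox1 and Sod2 with normexp background correction, and Gpx1 without HZ replicate 2. No tested gene had its 4 KO arrays all above or all below its 4 HZ arrays, beside 6.33% of probes. By sign 6 of the 8 were higher in KO and 2 lower, with a median difference of 0.11, where 56.8% of all tested named genes were higher and the median was 0.029. The mean level of the 8 genes, each centred on its mean over the arrays, was -0.02, -0.05, -0.13 and -0.08 on HZ replicates 1 to 4 and 0.20, 0.02, -0.02 and 0.08 on KO replicates 1 to 4. KO minus HZ by replicate number was 0.23, 0.07, 0.11 and 0.16, with the highest HZ array (-0.024) just under the lowest KO array (-0.018), and is given as a description with no test. Hmox1, with the largest difference of the 8 (0.73) and the widest spread, weighs most in this mean. A mean without Hmox1 is not given, so the order of arrays is not a result about the other 7 genes. The spread of single arrays was small for 7 of the 8. Their within-group SD was 0.086 to 0.15, under the median of 0.21 over all tested probes, and that of Hmox1 was 0.54.

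**Figure D1:**
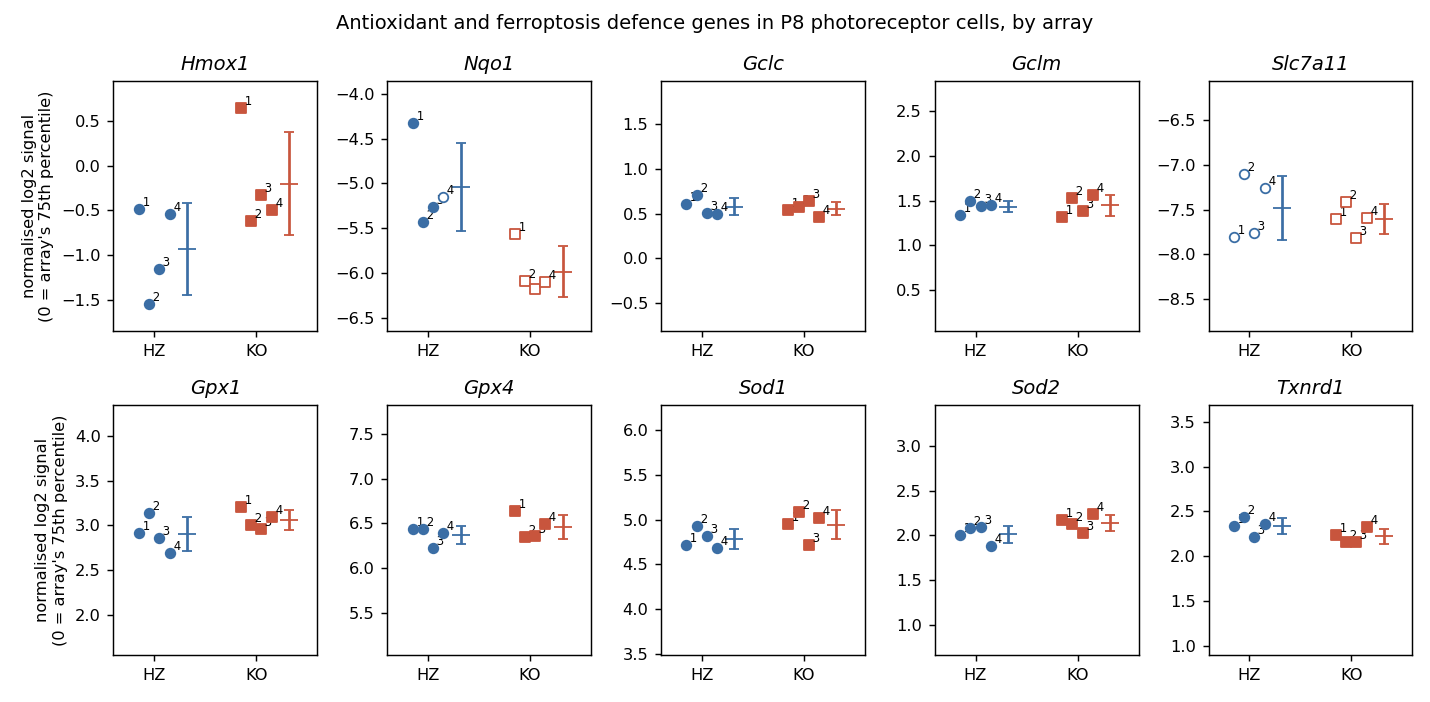
Normalised log2 signal (vertical axis, 0 is the 75th percentile of the array) of each of the 10 genes on the 4 HZ arrays (blue circles) and 4 KO arrays (red squares), numbered by replicate, with mean ± SD beside them. Every panel spans the same log2 range, hollow points were not well above background, and Txnrd1 and Slc7a11 are shown by their brighter probe. The widest scatter is in Hmox1 and Nqo1, and the Nqo1 groups do not overlap.

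Hmox1 encodes heme oxygenase 1, which breaks heme down to biliverdin, carbon monoxide and iron, and it had the largest difference of the tested genes. Its signal was -0.48, -1.55, -1.16 and -0.54 on HZ replicates 1 to 4 and 0.64, -0.62, -0.33 and -0.50 on KO replicates 1 to 4. KO replicate 1 was the highest of all arrays and HZ replicates 2 and 3 the lowest, while the other 5 arrays lay close together and the groups overlapped. The difference was 0.73, a fold of 1.66, with a 95% interval of -0.040 to 1.51 (SE 0.34, limma adjusted p = 0.623; two-sided exact permutation p = 0.143). The array with the same replicate number was higher in KO in 4 of 4 pairs, by 1.12, 0.93, 0.83 and 0.048. With the replicate number as a block, the difference is the same by design, as no value was missing. Its error was smaller (SE 0.19, 95% interval 0.23 to 1.23, limma adjusted p = 0.361). Hmox1 then passed the looser thresholds, which 0.74% of all probes passed as higher in that fit. With normexp background correction it also passed them (0.65, adjusted p = 0.481). Without KO replicate 1 the difference was 0.45, the lowest with any array left out, and without HZ replicate 1 it was 0.88, the highest.

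Markers of microglia and of red blood cells are given beside Hmox1. Of 15 tested microglia markers 14 were higher in KO by sign, with a median difference of 0.75. At the looser thresholds 1 of them was called, Tmem119, beside 0.227% of all probes called higher. Tmem119 was dim, well above background on 1 HZ and 3 KO arrays. It entered the test mainly through KO, so its call is not read as a result. The 13 markers well above background on all 8 arrays were not called. All 3 tested red blood cell markers were higher by sign, with a median of 1.58 and 0 calls. Hba-a1 and Hba-a2 read nearly alike on each array, with differences of 1.51 and 1.58, and are hardly separate readings. Hbb-bt was well above background on 2 HZ and 4 KO arrays. Untested markers of this list that were on the array were above background on too few arrays. The mean level of the microglia markers, centred on each gene's mean over the arrays, was -0.65, -0.39, -0.53 and 0.41 on HZ replicates 1 to 4 and 0.67, 0.34, 0.03 and 0.13 on KO replicates 1 to 4. KO minus HZ by replicate number was 1.32, 0.73, 0.56 and -0.29, the same order of pairs as for Hmox1. For the red blood cell markers it was 1.90, 1.67, 0.35 and 2.46, in another order, with the largest difference in the pair in which Hmox1 differed least. Over the 8 arrays, as a description, Pearson's r with Hmox1 was 0.72 to 0.80 for the red blood cell markers, 0.0074 to 0.79 for the microglia markers and -0.22 to -0.048 for the 11 tested RPE markers. Whether these cells had a part in the Hmox1 signal was not tested. In a bulk sample, fewer cells of a type and less RNA per cell cannot be told apart. The 5 tested genes whose signal was most like that of Hmox1 over the 8 arrays were Gpr137c and Ttc34 (Pearson's r 0.93 for each), Ppp1r36 (0.93), Lgals3 (0.92) and Gm33050 (0.91), given as a description. The arrays share a slide and a laboratory, and all 5 genes had a limma adjusted p of 0.659 or above.

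Nqo1 encodes a quinone reductase and is among the most used readouts of NRF2. It was dim and was not tested with the others, being well above background on 3 HZ arrays and on 0 KO arrays. Its signal was -4.32, -5.43, -5.27 and -5.15 on HZ replicates 1 to 4, of which replicate 4 was not well above background, and -5.57, -6.09, -6.18 and -6.10 on KO replicates 1 to 4. HZ replicate 1 stood above the other HZ arrays, and each KO array lay below each HZ array, which held for 1.73% of all probes with no filter on dim ones. The mean was -5.04 ± 0.49 in HZ and -5.99 ± 0.28 in KO (SD, n = 4, two-sided exact permutation p = 0.0286, the smallest that 4 against 4 arrays can give). Against the lowest signal of any probe that counted as well above background on each KO array, Nqo1 was 1.5-fold lower in KO. For this 3 KO arrays were set to that level and HZ replicate 4 was kept at its measured value. The level is not a detection limit of this probe. On KO replicate 1 it was -5.62, and Nqo1 at -5.57 was still not well above background. The 1.5-fold is therefore not a lower limit. With each array left out this value ran from 1.27-fold without HZ replicate 1 to 1.64-fold without HZ replicate 2, and it holds for this scaling only. Fitted with all probes and no filter, the difference was -0.94 (SE 0.26, limma adjusted p = 0.836). It depended on the treatment of low signals. The groups overlapped with quantile normalization, where the difference was -0.75, and with normexp correction, where it was -0.21. In intensity units the spots read 48.6, 23.8, 23.8 and 24.9 in HZ and 18.9, 14.6, 12.6 and 13.5 in KO, near the bottom of the scale.

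RPE markers are given beside Nqo1. All 11 tested RPE markers were lower by sign, with a median difference of -1.67. At the looser thresholds 8 of them were called, beside 0.813% of all probes called lower. The mean centred level of the RPE markers was 1.45, 0.02, 0.79 and 0.71 on HZ replicates 1 to 4 and -0.08, -0.80, -0.46 and -1.63 on KO replicates 1 to 4. HZ replicate 1 was the highest array for the RPE markers as it was for Nqo1, while the lowest was KO replicate 4 for the RPE markers and KO replicate 3 for Nqo1. By replicate number the RPE markers differed by -1.53, -0.82, -1.25 and -2.35, while pair differences of Nqo1 are not given, since none of its KO arrays was well above background. Whether RPE material had a part in the Nqo1 signal was not tested.

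Glutathione synthesis was covered by Gclc, the catalytic subunit of the enzyme that joins glutamate and cysteine, and by Gclm, its modifier subunit. Gclc read 0.61, 0.70, 0.51 and 0.50 on HZ replicates 1 to 4 and 0.54, 0.57, 0.64 and 0.46 on KO replicates 1 to 4. Gclm, whose promoter match is shown above, read 1.35, 1.499, 1.44 and 1.45 in HZ and 1.31, 1.53, 1.39 and 1.57 in KO. The groups overlapped for both genes. The difference was -0.025 for Gclc (95% interval -0.22 to 0.17, limma adjusted p = 0.941) and 0.013 for Gclm (-0.19 to 0.22, adjusted p = 0.973). In fold terms the intervals ran from 0.858 to 1.13 for Gclc and from 0.876 to 1.16 for Gclm, so that a doubling or halving of either transcript lay outside them.

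Slc7a11 encodes the cystine carrier of system xc-, which feeds this synthesis. Neither of its probes was well above background on any of the 8 arrays. The brighter probe read -7.81, -7.10, -7.77 and -7.26 in HZ and -7.61, -7.41, -7.82 and -7.60 in KO. The other probe lay between -8.03 and -7.41 in HZ and between -7.94 and -7.51 in KO. With both groups below background no fold is given, and the array set only an upper limit on this transcript. Slc3a2, the partner chain of the carrier, read 3.75 to 4.07 in HZ and 3.98 to 4.12 in KO, and its difference of 0.14 was not called (SE 0.10).

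The peroxidases Gpx1 and Gpx4 are selenoproteins. GPX1 reduces hydrogen peroxide in the cytosol and GPX4 reduces peroxides within phospholipids. Gpx1 read 2.92, 3.14, 2.86 and 2.69 on HZ replicates 1 to 4 and 3.21, 3.00, 2.95 and 3.09 on KO replicates 1 to 4. Gpx4 read 6.43, 6.44, 6.22 and 6.40 in HZ and 6.63, 6.35, 6.36 and 6.49 in KO, at 68557 to 89145 intensity units, with 0 saturated spots on any array. The groups overlapped for both genes, and KO was higher in 3 of 4 pairs for each. The difference was 0.16 for Gpx1 (95% interval -0.10 to 0.43, limma adjusted p = 0.725) and 0.087 for Gpx4 (-0.14 to 0.31, adjusted p = 0.809). For Gpx4, which has a central place in the defence against ferroptosis, the interval in fold terms was 0.908 to 1.24.

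Superoxide is turned into hydrogen peroxide by SOD1, the copper and zinc enzyme of the cytosol, and by SOD2, the manganese enzyme of mitochondria. Sod1, with its promoter match shown above, read 4.71, 4.93, 4.82 and 4.69 on HZ replicates 1 to 4 and 4.95, 5.08, 4.71 and 5.02 on KO replicates 1 to 4. Sod2 read 2.00, 2.08, 2.09 and 1.88 in HZ and 2.17, 2.13, 2.03 and 2.24 in KO. In each gene 3 KO arrays lay above all 4 HZ arrays, and KO replicate 3 lay among the HZ arrays. The difference was 0.15 for Sod1 (95% interval -0.094 to 0.40, limma adjusted p = 0.719) and 0.13 for Sod2 (-0.074 to 0.33, adjusted p = 0.717). With normexp correction the difference of Sod2 was 0.33 and its adjusted p 0.226, still short of the looser fold of 1.5.

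Txnrd1 encodes the cytosolic thioredoxin reductase, a selenoprotein that uses NADPH to keep thioredoxin reduced. Its brighter probe read 2.33, 2.44, 2.22 and 2.36 on HZ replicates 1 to 4 and 2.24, 2.15, 2.16 and 2.33 on KO replicates 1 to 4. KO was lower in 4 of 4 pairs, by small amounts, and the groups overlapped. The difference was -0.11 (95% interval -0.31 to 0.081, limma adjusted p = 0.731). The second, dimmer probe gave -0.028 (-0.27 to 0.21, adjusted p = 0.946), with KO higher in 3 of 4 pairs.

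**Figure D2:**
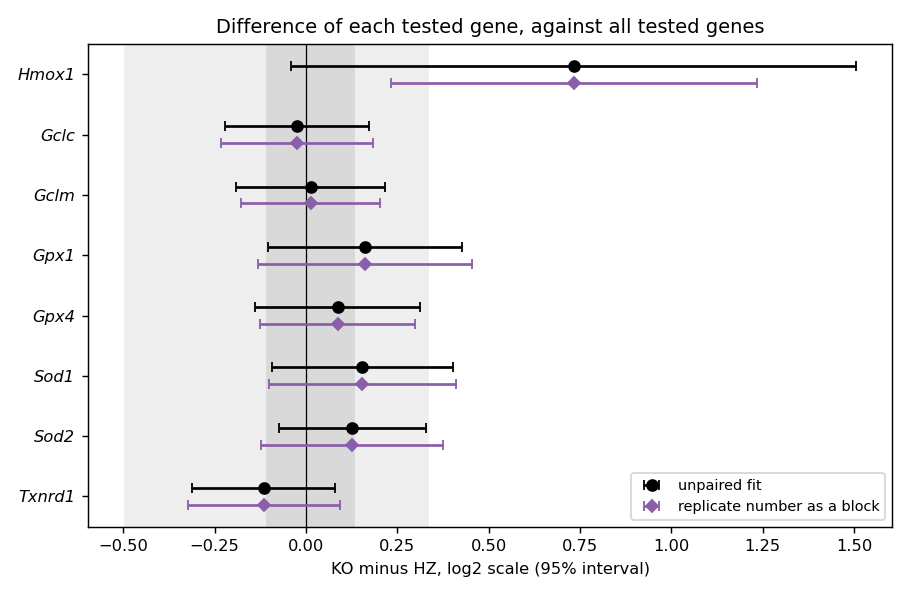
KO minus HZ on the log2 scale (horizontal axis) for the 8 tested genes with 95% intervals, from the unpaired fit (black circles) and with the replicate number as a block (purple diamonds). The dark and light bands hold the middle 50% and 90% of all 14848 tested named genes, and the interval that leaves out 0 is that of Hmox1 with the block.

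A further 129 genes in 6 lists describe the surrounding pathways, each by how many of its tested genes were higher or lower in KO and how many passed the looser thresholds. Of the 23 NRF2 regulators and other targets 22 were tested, 14 higher and 8 lower, with a median difference of 0.052. An unadjusted limma p under 0.05 was reached by 2 genes higher and 1 lower, beside 8.17% of all probes. Ephx1, the microsomal epoxide hydrolase, was called lower and none was called higher. Its signal was -2.03, -2.94, -2.47 and -2.25 on HZ replicates 1 to 4 and -3.02, -3.53, -3.42 and -3.64 on KO replicates 1 to 4. Each KO array lay below each HZ array, beside 6.33% of all tested probes with no overlap in either direction. The difference was -0.98 (SE 0.21, 95% interval -1.48 to -0.49, limma adjusted p = 0.362). Ugdh, which makes UDP-glucuronate for conjugation, lay higher on each KO array (2.58 to 2.92) than on any HZ array (2.27 to 2.45), a difference of 0.37 that was not called (SE 0.097, limma adjusted p = 0.434). With normexp correction it was -0.0068. Gstm1, a glutathione transferase, differed by -0.35 (limma adjusted p = 0.846) and by 0.065 without HZ replicate 2.

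Of the 21 genes of glutathione synthesis, transfer and breakdown all were tested, 11 higher and 10 lower, with a median of 0.016. An unadjusted limma p under 0.05 was reached by 2 genes higher and 1 lower, beside 8.17% of all probes. Mgst1, the microsomal glutathione transferase that also reduces lipid peroxides, was called lower. It read -3.17, -2.96, -2.94 and -3.23 on HZ replicates 1 to 4 and -3.81, -3.54, -3.60 and -4.29 on KO replicates 1 to 4. The groups did not overlap, beside the same 6.33% of probes. The difference was -0.73 (SE 0.17, 95% interval -1.13 to -0.34, limma adjusted p = 0.383). Chac1, which degrades glutathione and is a target of the integrated stress response, read -1.21, -0.43, -0.84 and -1.60 in HZ and -0.47, 0.42, -0.39 and -0.49 in KO. KO was higher in 4 of 4 pairs, but the groups overlapped and the difference of 0.79 was not called (SE 0.29, limma adjusted p = 0.566). It was called with normexp correction, with trend and robust eBayes, with the replicate block (adjusted p = 0.308) and without HZ replicate 2. Gpx8, a peroxidase of the endoplasmic reticulum, differed by -0.47 (limma adjusted p = 0.646).

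Of the 20 genes of the thioredoxin, peroxiredoxin and mitochondrial NADPH list 17 were tested, 11 higher and 6 lower, with a median of 0.039. There were 0 calls, and 0 genes had an unadjusted limma p under 0.05, beside 8.17% of all probes. The largest differences of the list were 0.35 for Txnip, an inhibitor of thioredoxin, 0.21 for catalase (Cat) and 0.18 for the peroxiredoxin Prdx5. Each had a limma adjusted p of 0.688 or above. The 34 genes of ferroptosis, iron and heme had 30 tested, 16 higher and 14 lower, with a median of 0.031. An unadjusted limma p under 0.05 was reached by 1 gene higher and 1 lower, beside 8.17% of all probes. Trf, the iron carrier transferrin, was called lower, with 2.32, 0.78, 1.72 and 1.68 on HZ replicates 1 to 4 and 1.13, 0.04, 0.43 and -0.93 on KO replicates 1 to 4. KO was lower in 4 of 4 pairs although the groups overlapped, and the difference was -1.46 (SE 0.46, 95% interval -2.52 to -0.39, limma adjusted p = 0.498). Mboat2, a phospholipid acyltransferase, differed by -0.90 (limma adjusted p = 0.624, called with normexp, with the block and without HZ replicate 2) and the copper ferroxidase Cp by -0.34 (adjusted p = 0.857), which was 0.12 without HZ replicate 2.

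Of all tested probes, 279 (0.813%) were called lower in KO at the looser thresholds and 78 (0.227%) higher. All 3 called genes, Ephx1, Mgst1 and Trf, were lower in KO, as were the RPE markers. By replicate number their differences were smallest in pair 2 and largest in pair 4, and so were those of the RPE markers. For Ephx1 they were -0.99, -0.60, -0.95 and -1.39, for Mgst1 -0.64, -0.57, -0.65 and -1.06, and for Trf -1.19, -0.74, -1.29 and -2.61. The part of RPE material in them was not tested. All 3 lost their calls without HZ replicate 1 (adjusted p of 0.625 to 0.706), HZ replicate 3 (0.754 to 0.838), KO replicate 2 (0.596 to 0.744), KO replicate 3 (0.647 to 0.691) or KO replicate 4 (0.620 to 0.763), each with limma. Trf and Mgst1 also lost them without KO replicate 1, and Trf without HZ replicate 4. The differences themselves ran from -1.16 to -0.85 for Ephx1, -0.82 to -0.57 for Mgst1 and -1.78 to -1.09 for Trf with each array left out. With no filter on dim probes all 3 calls were lost (limma adjusted p of 0.716 to 0.902), with quantile normalization those of Mgst1 (0.532) and Trf (0.512), and with the percentile over bright probes (0.509) and the methods' t-test (0.503) that of Trf. With normexp correction Mgst1 differed by -0.27 and was not called.

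**Figure D3:**
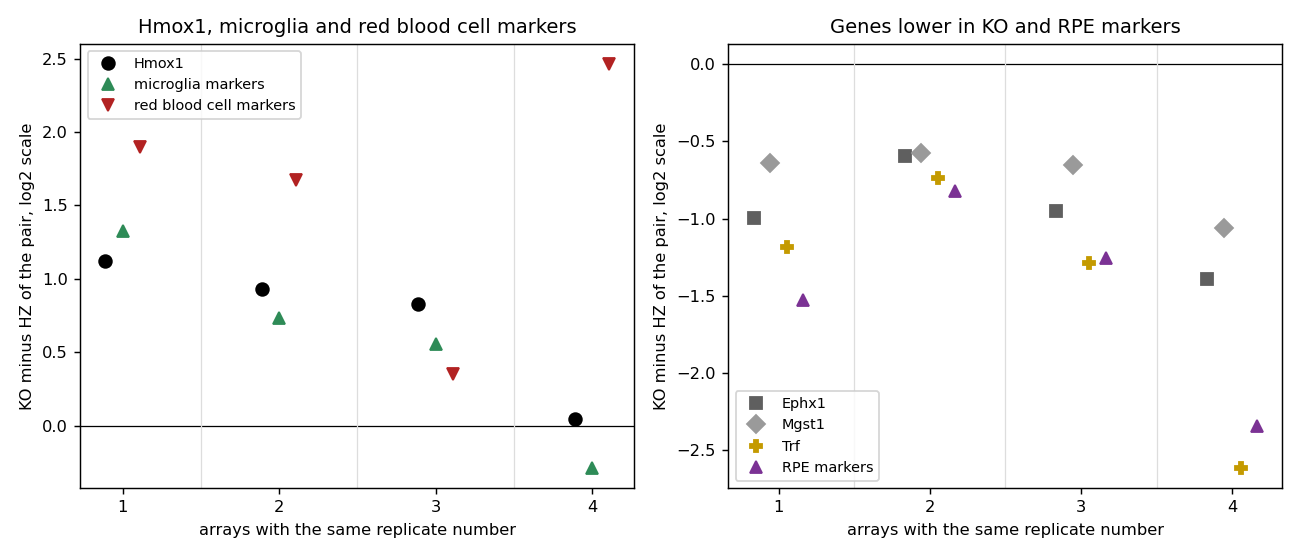
KO minus HZ of the arrays with the same replicate number (horizontal axis) on the log2 scale (vertical axis). On the left, Hmox1 (circles) with the mean of the microglia (upward triangles) and red blood cell markers (downward triangles); on the right, Ephx1, Mgst1 and Trf with the mean of the RPE markers (triangles). In pair 4 Hmox1 (0.048) and the microglia markers (-0.29) have their lowest value, on opposite sides of 0, and the red blood cell markers their highest (2.46). All values on the right lie below 0 with the RPE markers at -0.82 to -2.35.

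All 24 genes of the selenoprotein list, which covers selenoproteins and the factors that insert selenocysteine, were tested, 17 higher and 7 lower, with a median of 0.087 and 0 calls. Selenop, the secreted selenium carrier, differed by 0.68 (SE 0.33, limma adjusted p = 0.639). It was called without HZ replicate 2 (0.67, adjusted p = 0.429) and without HZ replicate 4 (0.97, adjusted p = 0.480). By replicate number Selenop differed by 1.63, 1.11, 0.64 and -0.66, the same order of pairs as for the microglia markers, whose part in it was not tested. Selenoh by 0.27 and Trnau1ap, a factor of selenocysteine incorporation, by 0.23 were higher in KO in 4 of 4 pairs, with adjusted p of 0.596 and 0.615. Of the list 1 gene, Selenoh, had an unadjusted limma p under 0.05, beside 8.17% of all probes. The KO arrays lay all above the HZ arrays in 3 genes and all below in 1, beside 6.33% of probes in either direction. The NADPH oxidase subunits, which make superoxide in phagocytes, had 5 of 7 tested, 4 higher and 1 lower, with a median of 0.38 and 0 calls. The median was 0.15 with normexp and ran from 0.21 to 0.54 with each array left out. Ncf4 differed by 0.60 and Cyba by 0.38, each with a limma adjusted p of 0.705. In this list 0 genes had an unadjusted limma p under 0.05, beside 8.17% of all probes. The microglia markers are given above. Ncf4 was dim, well above background on 1 HZ array, replicate 4, and on 3 KO arrays. It entered the test mainly through KO, so its difference and calls are not read as a result. Rac2 was well above background on 2 HZ and 4 KO arrays. Ncf4 was called with quantile normalization (0.70, limma adjusted p = 0.4996) and without HZ replicate 4 (0.99, adjusted p = 0.446). The part of microglia in these values was not tested.

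**Figure D4:**
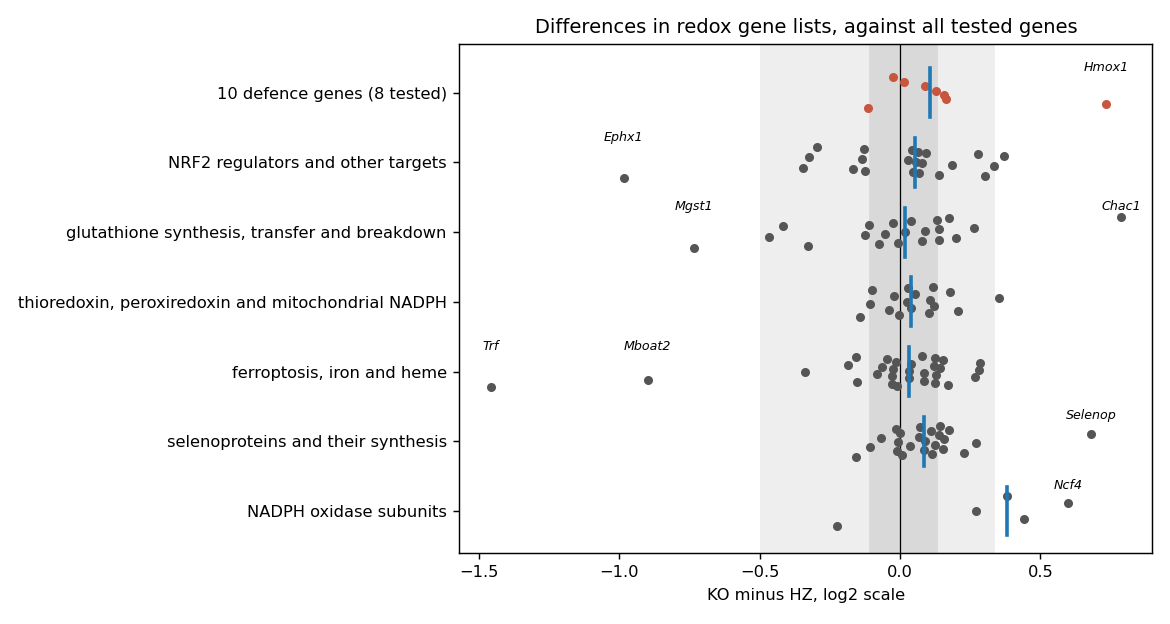
KO minus HZ on the log2 scale (horizontal axis) for every tested gene of the 10 defence genes (red) and of 6 further lists (grey), with the list's median as a blue bar and the bands of all tested named genes as in the plot of intervals. Vertical position within a list only spreads the points. Most genes lie inside the bands, and the named points are those with a difference beyond 0.55, with Trf the lowest at -1.46.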

How the data were processed

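Per the labels and file headers, each array holds Cy3-labelled cRNA of 1 sample. The authors scanned the arrays, and the deposited intensities are the background-subtracted spot signals of Agilent Feature Extraction 10.7.1.1. A table of log2 values that the authors had shifted by the 75 percentile in GeneSpring was deposited as well. It tracked the values computed here (r = 0.994), had column medians of -0.065 to 0.20, and served as an alternative.

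Each log2 intensity was expressed relative to its array's 75th percentile over the 59305 non-control spots, spots marked as outliers were dropped, and a probe's remaining spots were averaged. It entered the test (34303 probes did) when it was well above background on 4 or more arrays with 3 or more values a group. RefSeq accessions gave a symbol to 32994 of 56605 probes. The annotation table and promoter windows are of GRCm38.p6, whereas the file headers name another build, so that no coordinates but those of the windows are printed. The groups were compared by a two-sided limma fit (version 3.58.1, lmFit and eBayes, in R 4.3.3 with the data.table package, version 1.17.8), unpaired as in the methods, and p-values were adjusted by Benjamini-Hochberg over all tested probes. The brightest probe stands for a gene. The script was tested on simulated data. Plots used matplotlib 3.10.9.

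The members and lists were chosen with earlier results of these data known. Named are all members, the 3 genes of each further list with the largest difference, any gene of it past the looser thresholds, Lpcat1, and the 5 genes most like Hmox1. Slc3a2, Alas2 and other markers were named after their values were seen. A few genes that fall under this rule are left unnamed here. The median differences of the other marker lists are given here only. They were -0.10 for rods, 0.17 for cones and -0.27 for Muller glia. They were -0.26 for bipolar cells, -0.38 for amacrine and ganglion cells, and 0.077 for vessels.

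As a check of pairing, deviations from group means were correlated between HZ and KO arrays. Those with the same replicate number gave r of 0.164 to 0.337, over 0.1 in 4 of 4 pairs. Those with unlike numbers gave -0.340 to 0.118, so that 0.1 was passed among these too. Deviations from a group mean cancel out within the group, so positive r for some pairs of arrays goes with negative r for others. The contrast is partly built in for this reason. The labels do not say what a number stands for, and this check cannot settle it. The numbers were used as pairs in the block fit and in the pair differences, and the main fit was unpaired. The alternatives changed the normalization (quantile), the background correction (normexp, offset 50), the set of probes behind the percentile, the filter on dim probes (none, or above background everywhere), the test (eBayes with trend and robust, the replicate number as a block, an unadjusted p, the methods' t-test), the values (those of the authors), the arrays (each left out in turn) and the probe of a gene (the mean of all). The number of arrays limits the precision. Whole retina was not analysed here.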

Additional observations from a re-analysis of the deposited data

Results flagged for a closer look

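Of 58 groups of 4 values looked at, those of the 12 probes, the marker and redox list means and Lpcat1, 4 held an array far from the other 3 of its group, where about 2.9 are expected by chance at 5%. Nqo1 read -5.57 on KO replicate 1 against -6.18 to -6.09 on the other KO arrays, and was not well above background on any of them. The dimmer Slc7a11 probe read -7.41 on HZ replicate 4 against -8.03 to -8.00, also below background. The mean of the red blood cell markers was 0.261 on HZ replicate 1 against -1.23 to -1.04 on the other HZ arrays. The mean of the vascular markers was -0.563 on KO replicate 1 against 0.331 to 0.372 on the other KO arrays.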

How the results depend on the processing

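The 8 tested defence genes gave 0 calls at a fold over 1.2 and an adjusted p under 0.05 in each alternative run. At a fold over 1.5 and an adjusted p under 0.5 they gave 1 call with normexp correction and 1 with the replicate block, Hmox1 in each, and 0 in every other alternative. The direction of Hmox1, Gpx1, Gpx4, Sod1, Sod2 and Txnrd1 held in each alternative run that could change it, while differences near 0 turned. Runs that changed only the filter, the test or the block kept the group means of these genes and could not turn a direction. Gclm was -0.0045 with quantile normalization, -0.0078 with the percentile taken over bright probes only, and -0.026 to 0.058 with each array left out. Gclc was 0.010 with normexp and -0.054 to 0.017 with each array left out. Ugdh was -0.0068 and Lpcat1 0.0049 with normexp. With each array left out Lpcat1 ran from -0.097 to 0.022, Gstm1 from -0.641 to 0.065 and Cp from -0.616 to 0.117. The median over the tested defence genes ran from 0.050 to 0.14, and that over the glutathione list from -0.055 to 0.078. Over all probes the calls at the tighter thresholds, 0 in the report, were 2 with quantile normalization, 17 with normexp, 2 with the methods' t-test and 3 with trend and robust eBayes. At the looser thresholds there were 357 calls, 41 with no filter on dim probes, 1167 with the replicate block and 2803 at an unadjusted p under 0.05. With each array left out they ran from 0 (leaving out replicate 3 of HZ, or 3 or 4 of KO) to 1734 (leaving out replicate 2 of HZ), and were 1 when replicate 1 of HZ, 57 when replicate 2 of KO and 197 when replicate 1 of KO was left out. The block changed the call of no other tested defence gene than Hmox1, and also called Chac1 and Mboat2. The causes were not tested. A signal near background, as for Nqo1 and Slc7a11, limits what the array can show of these genes.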
